A study of Homo sapiens with 4 samples.

Results

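The genes described are the 6 peroxiredoxins (PRDX1 to PRDX6), the superoxide dismutases SOD1 and SOD2 and catalase (CAT), taken from the table by gene symbol. They are 9 of the 25737 genes listed, and each symbol had 1 row. The libraries were 2 from SKOV-3 cells given 40 µM rosmarinic acid methyl ester (RAME), a plant phenol ester, for 24 h, and 2 from SKOV-3 cells given the solvent DMSO. SKOV-3 is a single established human ovarian cancer line, and no source says whether a group was 2 cultures or 1, so each p-value reflects only how far these libraries spread, which may be technical.

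Superoxide, which leaks from the respiratory chain and is made by NADPH oxidases, is turned into hydrogen peroxide by superoxide dismutases. Peroxiredoxins then reduce the peroxide through a reactive cysteine that most of them recycle with thioredoxin, while catalase, in the peroxisome, breaks it down without a thiol. The enzymes divide the cell between them. SOD1, PRDX1, PRDX2 and PRDX6 act mostly in the cytosol, SOD2 and PRDX3 in the mitochondrial matrix, PRDX4 in the endoplasmic reticulum, and PRDX5 in mitochondria, peroxisomes and the cytosol.

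Assigned reads summed to 1441575 and 1777782 in the RAME libraries and to 2306379 and 2543566 in the DMSO libraries, so the RAME libraries were the shallower. Of 10 markers of epithelium and ovarian cancer lines, 4 had no read in any library (ERBB2, EPCAM, KRT7 and KRT19), and the most-read was PAX8 with 70 reads, so the labelled cell type is not shown by its defining markers here. Their summed level was 8.14 to 18.9 CPM in the RAME libraries and 8.47 to 9.67 CPM in the DMSO libraries (CPM, reads scaled to a common library size by TMM). Markers of leukocytes reached at most 1.74 CPM in RAME and 0.385 CPM in DMSO and those of endothelium at most 0 CPM in RAME and 0.42 CPM in DMSO, with PTPRC and PECAM1 at 0 reads in every library. Markers of fibroblasts, led by COL1A2 with 126 reads, summed to 13.8 to 17.4 CPM in RAME and 21.9 to 25.8 CPM in DMSO. The part of these marker levels in the results was not tested. In bulk RNA, fewer cells with a transcript and less of it per cell cannot be told apart.

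The 9 genes were sparsely read. Together they had 151 and 317 reads in the RAME libraries, against 725 and 358 reads in the DMSO libraries, or 0.0105% and 0.0178% of the reads against 0.0314% and 0.0141%. DMSO replicate 1 therefore stood above the other 3 libraries. SOD1 was the most-read member with 824 reads over the 4 libraries, which placed it above 88.6% of the 11683 genes with any read. PRDX1 followed with 362 reads and PRDX4 with 187, and SOD2, PRDX5 and PRDX6 had 63, 59 and 46. CAT, PRDX3 and PRDX2 were near the floor with 7, 2 and 1 reads. Reads fall near the 3′ end in these libraries, with no dependence on transcript length in the design, so no length correction was made between genes. Whether reads of different genes were assigned equally well was not tested, and the counting tool and annotation are not stated.

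**Figure D1:**
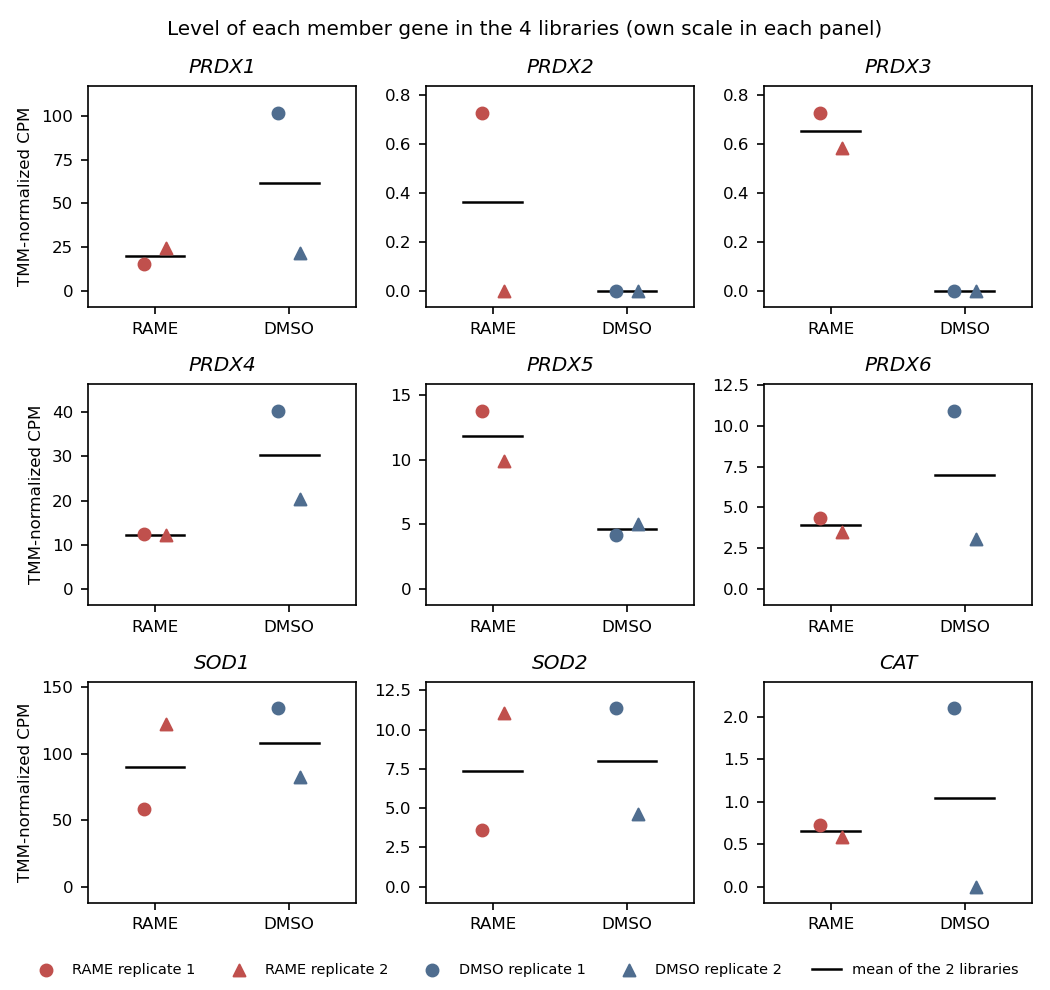
Level of each of the 9 genes in TMM-normalized CPM (vertical axis, own scale per panel) in RAME and DMSO libraries; circles are replicate 1, triangles replicate 2 and lines the mean of the 2 libraries. The RAME points of PRDX5 all lie above its DMSO points and those of PRDX4 all lie below, and for PRDX1 only DMSO replicate 1 stands far from the rest.

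None of the 9 genes passed the test between RAME and DMSO. PRDX1 and PRDX4 were lower on average with RAME, to 0.324 and 0.406 times the DMSO level, and PRDX5 was 2.54 times the DMSO level, but all 3 had adjusted p over 0.05 in edgeR (quasi-likelihood test, Benjamini-Hochberg adjustment over all genes tested). SOD1 and SOD2, at 0.835 and 0.942 times the DMSO level, had libraries of both groups interleaved. Only these 5 genes had enough reads to enter the test, and 0 of the 5 was called at an adjusted p under 0.05, where 13.5% of the 4517 genes tested were. DESeq2 (14.7% of all genes called) and limma-voom (9.7%) also called 0 of them. The count stayed at 0 with upper quartile scaling (14.2% of all genes called), scaling by library size alone (14.3%), libraries thinned to the smallest total (14.9%) and the replicate number as a block (9.67%). It was 1, PRDX1, with no filter on reads (6.74% of all genes called), and 2, PRDX1 and PRDX4, with libraries paired crosswise (39.6%), an alternative chosen after seeing the data. At an unadjusted p under 0.05 in edgeR there were 2 of the 5, PRDX1 and PRDX4, against 31.3% of all genes tested. The median log2 fold change was −0.26 over the 5 genes and 0.01 over all genes tested. In 2 of the 5 the groups did not overlap, PRDX4 with both RAME libraries below (29.5% of all genes tested) and PRDX5 with both above (31.2%), and 60.7% of all genes tested had no overlap in either direction. Permuting 4 libraries in an exact two-sided test gives 0.333 at the smallest, so no single gene can pass 0.05 in such a permutation test.

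**Figure D2:**
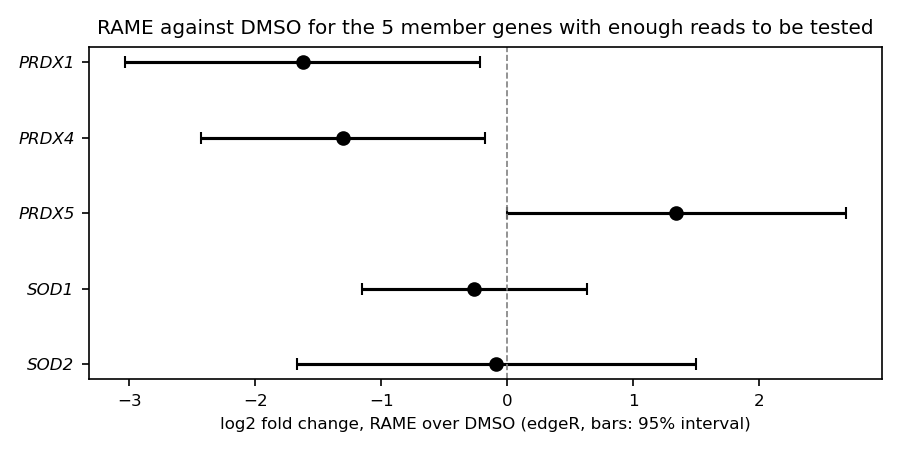
Log2 fold change of RAME over DMSO (horizontal axis) for the 5 genes with enough reads to be tested, with 95% intervals from edgeR that are not adjusted for the number of genes. PRDX1 and PRDX4 lie below 0 and PRDX5 above, with intervals that reach to within 0.22 of 0 or cross it, and the intervals of SOD1 and SOD2 span 0.

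PRDX1, the cytosolic 2-cysteine peroxiredoxin that is usually the most abundant of the family, had 21 and 42 reads in the RAME libraries and 242 and 57 reads in the DMSO libraries. In CPM the levels were 15.3 and 24.4 in RAME and 102 and 21.9 in DMSO. DMSO replicate 1 was thus 4.64 times DMSO replicate 2, which itself lay between the 2 RAME libraries, and the groups overlapped. The log2 fold change was −1.62 with a standard error of 0.64 and a 95% interval of −3.03 to −0.22 (adjusted p = 0.113 from edgeR). Without DMSO replicate 1 it was −0.13 (adjusted p = 0.935 from edgeR), and without DMSO replicate 2 it was −2.34 (adjusted p = 0.000429 from edgeR). Without RAME replicate 2 it passed as well (−2.01, adjusted p = 0.0242 from edgeR). A difference in PRDX1 therefore rested on 1 DMSO library. GENCODE 29 names 1 pseudogene of PRDX1, for which the table has no row, and MMACHC, which overlaps PRDX1, had 0 and 4 reads in RAME and none in DMSO.

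PRDX4, the peroxiredoxin of the endoplasmic reticulum, where it takes up the peroxide left by oxidative protein folding, had 17 and 21 reads in RAME and 96 and 53 reads in DMSO. Its level was 12.3 and 12.2 CPM in RAME and 40.3 and 20.4 CPM in DMSO. Both RAME libraries lay below both DMSO libraries and almost coincided, while the DMSO libraries were 1.98-fold apart. The log2 fold change was −1.30 with a standard error of 0.51 and a 95% interval of −2.43 to −0.17 (adjusted p = 0.113 from edgeR). Without DMSO replicate 1 it was −0.73 (adjusted p = 0.556 from edgeR), and without DMSO replicate 2 it was −1.71 (adjusted p = 0.0278 from edgeR). ERO1A, the oxidase that makes much of that peroxide and the most-read of 10 genes for peroxide sources, had 1 and 9 reads in RAME and 8 and 1 reads in DMSO, too few to be tested and with no order between the groups. By the root mean square distance of centred log2 CPM over the 4 libraries, the tested genes nearest to PRDX4 were SPAST (0.0615), SETD8 (0.0626) and UCHL3 (0.066), which encode a microtubule-severing enzyme, a histone methyltransferase and a ubiquitin hydrolase.

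PRDX5, an atypical 2-cysteine peroxiredoxin with the widest spread over compartments, was the one tested member above DMSO. It had 19 and 17 reads in RAME and 10 and 13 reads in DMSO, although the RAME libraries were the shallower. It met the filter on reads through its RAME libraries, where it was higher, so its place among the tested genes depended on that group. In CPM these were 13.8 and 9.89 in RAME and 4.20 and 5.00 in DMSO. Libraries of a group were within 1.4-fold of each other, and the groups did not overlap. The log2 fold change was 1.34 with a standard error of 0.62 and a 95% interval of −0.0044 to 2.69 (adjusted p = 0.161 from edgeR). With each library left out in turn it stayed between 1.09 and 1.57 and did not pass in any case. With 59 reads in all, a difference of this size was not called at this depth. The fit with no filter on reads gave 1.30 with a standard error of 0.75 (adjusted p = 0.442 from edgeR).

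Promoter windows of 300 bases, from 250 before to 50 after a start site, were taken from RefSeq on GRCh38.p14 for 6 of the 9 genes (10 windows; none for PRDX1, PRDX6 and SOD1) and searched on both strands for TGACNNNGC, the core of the antioxidant response element that NRF2 binds. No window of these 6 genes held it, and 13.3% of all 35116 windows did. TXNRD1, a thioredoxin reductase that passed the test between RAME and DMSO, held it in both of its windows, and the window of NQO1, which passed too, did not. A match of letters is a description and not a site, and its absence says only that these letters are not in this window. The window of TXNRD1 with 2 matches, in capitals, is shown beside those of the 2 tested peroxiredoxins whose groups did not overlap, PRDX4 and PRDX5, which have none. For PRDX5, which has 2 overlapping windows, the first is shown.
TXNRD1 chr12:104215529-104215828 (plus strand): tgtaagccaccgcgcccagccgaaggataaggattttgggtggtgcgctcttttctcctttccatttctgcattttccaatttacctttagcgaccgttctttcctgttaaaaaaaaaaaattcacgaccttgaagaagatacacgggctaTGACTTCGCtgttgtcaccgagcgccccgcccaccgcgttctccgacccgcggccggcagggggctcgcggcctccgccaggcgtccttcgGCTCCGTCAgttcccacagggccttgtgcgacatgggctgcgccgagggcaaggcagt
PRDX4 chrX:23667243-23667542 (plus strand): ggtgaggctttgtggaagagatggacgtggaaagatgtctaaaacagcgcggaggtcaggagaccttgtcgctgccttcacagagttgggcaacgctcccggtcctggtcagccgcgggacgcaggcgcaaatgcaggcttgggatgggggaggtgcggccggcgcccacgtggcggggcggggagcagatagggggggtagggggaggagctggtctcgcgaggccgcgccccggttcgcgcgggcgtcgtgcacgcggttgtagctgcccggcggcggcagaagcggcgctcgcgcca
PRDX5 chr11:64317871-64318170 (plus strand): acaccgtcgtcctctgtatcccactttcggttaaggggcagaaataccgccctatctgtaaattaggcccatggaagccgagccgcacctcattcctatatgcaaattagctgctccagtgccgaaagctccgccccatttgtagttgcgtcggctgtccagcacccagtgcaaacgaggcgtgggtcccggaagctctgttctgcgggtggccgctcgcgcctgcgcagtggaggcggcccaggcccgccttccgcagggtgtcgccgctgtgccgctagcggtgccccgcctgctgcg

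PRDX6, the 1-cysteine member, which relies on glutathione rather than thioredoxin and also acts as a phospholipase, had 6 and 6 reads in RAME and 26 and 8 reads in DMSO. In CPM the RAME libraries, at 4.36 and 3.49, lay between DMSO replicate 1 at 10.9 and DMSO replicate 2 at 3.08. PRDX6 was below the filter on reads, and in the fit with no filter its log2 fold change was −0.86 with a standard error of 0.87 (adjusted p = 0.733 from edgeR).

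PRDX2 and PRDX3, the cytosolic and mitochondrial 2-cysteine enzymes, were almost without reads. PRDX2 had 1 and 0 reads in RAME and 0 and 0 in DMSO. PRDX3 had 1 and 1 reads in RAME and 0 and 0 in DMSO. No read among the 4849945 of the DMSO libraries allows up to 3 reads over the group, or 0.619 CPM, and the same floor in RAME is 0.932 CPM, so both groups were at or under the floor and no fold can be given. GENCODE 29 names 4 pseudogenes of each of them, with no row in the table, and whether reads were lost to these copies was not tested. Other antioxidant genes that cells commonly transcribe also had few reads, of which TXN and GPX4 were chosen after their values were seen. TXN, the cytosolic thioredoxin that recycles PRDX2, had 0 and 5 reads in RAME and 4 and 0 in DMSO, and GPX4, the lipid peroxide reductase, had 0 and 1 reads in RAME and 1 and 0 in DMSO.

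The make-up of the peroxiredoxin reads within a library does not depend on how libraries are scaled to each other. PRDX5 took 29.2% and 19.5% of them in RAME (19 of 65 and 17 of 87 reads, exact 95% intervals 18.6 to 41.8% and 11.8 to 29.4%) and 2.67% and 9.92% in DMSO (10 of 374 and 13 of 131 reads, intervals 1.29 to 4.86% and 5.39 to 16.4%). The shares did not overlap between the groups, although the interval of RAME replicate 2 met that of DMSO replicate 2. In CPM, 60.7% of all genes tested had no overlap between groups. In DMSO replicate 1, PRDX1 had 242 of the 374 reads, while PRDX5 itself was at 4.20 and 5.00 CPM in the DMSO libraries. The share of PRDX5 therefore also carries the level of PRDX1 and is not separate evidence on PRDX5. PRDX1 took 32.3% and 48.3% in RAME and 64.7% and 43.5% in DMSO, so that DMSO replicate 2 lay between the RAME libraries here too, and the mean difference of −13.8 percentage points was −3.22 without DMSO replicate 1. PRDX4 took 26.2% and 24.1% in RAME and 25.7% and 40.5% in DMSO, and DMSO replicate 1 did not differ from the RAME libraries beyond its interval of 21.3 to 30.4%. PRDX6 kept to 9.23% and 6.90% in RAME and 6.95% and 6.11% in DMSO. These intervals cover counting error only, since PCR copies of a molecule cannot be recognised in these reads. Summed over the 6 genes the level was 47.2 and 50.6 CPM in RAME and 157 and 50.4 CPM in DMSO. DMSO replicate 2 thus held as much peroxiredoxin transcript as the RAME libraries, and DMSO replicate 1 more than the other 3 libraries.

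**Figure D3:**
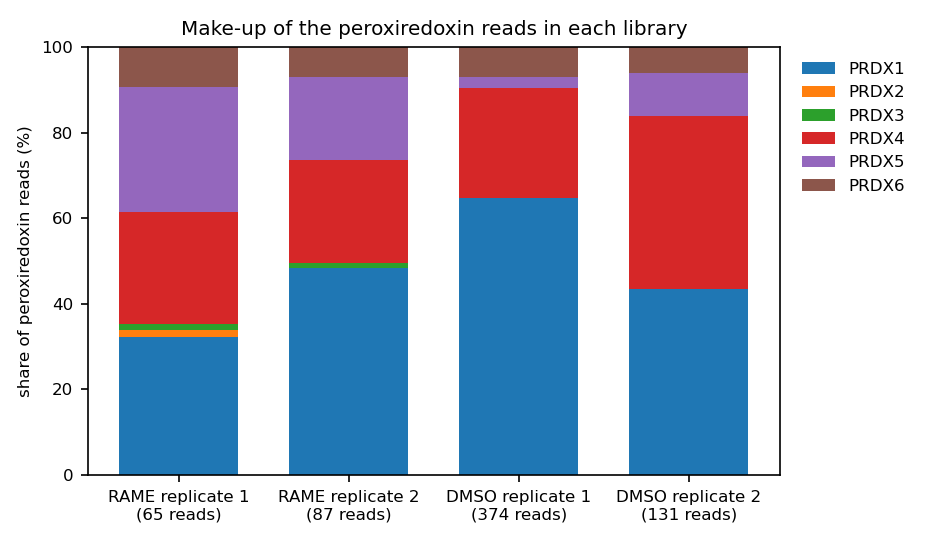
Share of each peroxiredoxin gene in the reads of the family (vertical axis, percent) in each library, with the number of family reads under each bar. PRDX5 takes 29.2% and 19.5% in RAME against 2.67% and 9.92% in DMSO, and PRDX1 takes its largest share, 64.7%, in DMSO replicate 1.

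SOD1, the copper-zinc dismutase of the cytosol, had 80 and 210 reads in RAME and 319 and 215 reads in DMSO. Its level was 58.1 and 122 CPM in RAME and 134 and 82.7 CPM in DMSO. RAME replicate 2 lay between the DMSO libraries, so the groups overlapped. The log2 fold change was −0.26 with a standard error of 0.40 and a 95% interval of −1.15 to 0.63 (adjusted p = 0.71 from edgeR), which leaves room for a fold of RAME over DMSO between 0.45 and 1.55. The sign turned without DMSO replicate 1 (0.13, adjusted p = 0.915 from edgeR) and without RAME replicate 1 (0.17, adjusted p = 0.889 from edgeR). GENCODE 29 names 3 pseudogenes of SOD1 with no row in the table.

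SOD2, the manganese dismutase of mitochondria, a gene known to respond to NF-κB, had 5 and 19 reads in RAME and 27 and 12 reads in DMSO. Its level was 3.63 and 11.1 CPM in RAME and 11.3 and 4.62 CPM in DMSO, and each group spanned nearly the same range. The log2 fold change was −0.09 with a standard error of 0.72 and a 95% interval of −1.67 to 1.5 (adjusted p = 0.959 from edgeR), and its sign turned without DMSO replicate 1 (0.69, adjusted p = 0.705 from edgeR), without RAME replicate 1 (0.47, adjusted p = 0.818 from edgeR) and with upper quartile scaling (0.017). SOD2 overlaps WTAP and ACAT2 in GENCODE 29, which had 304 to 1558 reads per RAME library and 823 to 1776 per DMSO library, and with no strand setting stated reads of overlapping genes cannot be told apart. CAT had 1 and 1 reads in RAME and 5 and 0 reads in DMSO, all 5 of the DMSO reads in replicate 1. The ratio of CPM over the group totals was 0.603, with an exact 95% counting interval of 0.0574 to 3.68, so no difference in CAT was detectable at this depth.

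The reads of SOD1, SOD2 and CAT were split alike in all 4 libraries. SOD1 took 93.0% and 91.3% of them in RAME and 90.9% and 94.7% in DMSO, and SOD2 took 5.81% and 8.26% in RAME and 7.69% and 5.29% in DMSO. The RAME share of SOD1 minus the DMSO share was −0.63 percentage points, less than the SD of 2.71 between the DMSO libraries.

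In order of mean level in RAME libraries, SOD1 (90.1 ± 45.3 CPM, SD, n = 2) came before PRDX1 (19.8 ± 6.49), PRDX4 (12.3 ± 0.094), PRDX5 (11.8 ± 2.77), SOD2 (7.34 ± 5.25), PRDX6 (3.92 ± 0.614) and, at 0.654 ± 0.102 each, CAT and PRDX3, with PRDX2 last (0.363 ± 0.514). In order of mean level in DMSO libraries, SOD1 (108 ± 36.3 CPM, SD, n = 2) came before PRDX1 (61.8 ± 56.4), PRDX4 (30.4 ± 14.1), SOD2 (7.98 ± 4.76), PRDX6 (7.0 ± 5.55), PRDX5 (4.60 ± 0.566) and CAT (1.05 ± 1.49), with PRDX2 and PRDX3 at 0. PRDX5 thus stood before SOD2 and PRDX6 in RAME and after both in DMSO, with ranges that overlapped those of SOD2 in both groups. Among neighbours in the RAME order, SOD1 and PRDX1, PRDX1 and PRDX4, and PRDX6 and CAT did not overlap, and the other neighbours did. In DMSO the ranges of neighbours overlapped except between PRDX4 and SOD2 and between PRDX5 and CAT. These are orders of assigned reads, and whether all genes were counted equally well was not tested.

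The 2 DMSO libraries differed for several members. DMSO replicate 1 was over 2-fold above DMSO replicate 2 in 2 of the 5 tested members, PRDX1 (4.64-fold) and SOD2 (2.46-fold), and in 13% of all genes tested, and 4.94% of all genes tested differed the other way. PRDX6, below the filter, was 3.55-fold apart in the same direction. PRDX5 was the one member with a read in DMSO replicate 2 for which that library was the higher, with a ratio of replicate 1 to replicate 2 of 0.84. The plot of fold changes with each library left out shows the effect on each gene. Without DMSO replicate 1, 0 of the 5 was called (7.15% of all genes called), without DMSO replicate 2 there were 2 (19%), without RAME replicate 1 there were 0 (7.62%) and without RAME replicate 2 there was 1 (13.4%).

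**Figure D4:**
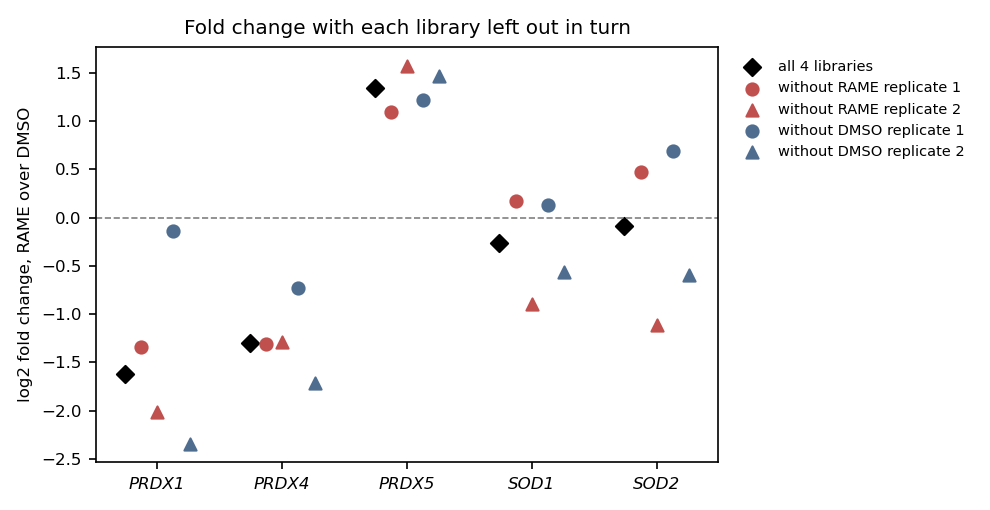
Log2 fold change of RAME over DMSO (vertical axis) for the 5 tested genes with all 4 libraries (black diamonds) and with each library left out (coloured). PRDX1 moves between −2.34 and −0.13 and PRDX4 between −1.71 and −0.73, PRDX5 stays between 1.09 and 1.57, and SOD1 and SOD2 fall on both sides of 0.

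Of 43 genes that work beside these enzymes, 10 had enough reads to be tested, and 2 were higher and 0 lower with RAME in edgeR, where 6.46% of all genes tested were higher and 7.08% lower. TXNRD1, the cytosolic thioredoxin reductase that keeps thioredoxin able to recycle peroxiredoxins and whose promoter window was printed with those of PRDX4 and PRDX5, rose. It had 16 and 13 reads in RAME and 0 and 3 reads in DMSO, a ratio of CPM over the group totals of 14.6 with an exact 95% counting interval of 4.51 to 74.7 (adjusted p = 0.0285 from edgeR). Its DMSO reads were below the filter, so TXNRD1 entered the test, and the count of 2, only through the RAME libraries, where it was high. The fitted log2 fold change was 3.86 (standard error 0.99), and 3.82 (standard error 1.09) in the fit with no filter on reads. It was 2.97 without DMSO replicate 1 (adjusted p = 0.0757 from edgeR) and 3.54 without RAME replicate 1 (adjusted p = 0.118 from edgeR), where the call was lost at a fold that remained large. Every read of the DMSO group lay in replicate 2, and without that library the fitted value was 7.13, which depends on the prior count because the DMSO reads were then 0. NQO1, a quinone reductase and a standard target of the oxidative stress factor NRF2, rose as well. It had 35 and 55 reads in RAME and 11 and 22 reads in DMSO (2.12 ± 0.53 on the log2 scale, ± standard error; adjusted p = 0.0267 from edgeR). NQO1 had both RAME libraries above both DMSO libraries, as had 31.2% of all genes tested. Its DMSO libraries alone would not have met the filter on reads. NQO1 too therefore entered the test, and the count of 2, through the RAME libraries, where it was higher. Its log2 fold change was 1.76 without DMSO replicate 1 (adjusted p = 0.0915 from edgeR) and 1.95 without RAME replicate 2 (adjusted p = 0.0582 from edgeR), close in size but no longer called. Neither gene passed without DMSO replicate 1, so the count of 2 became 0 there.

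The other 8 partners tested did not pass. CCS, the chaperone that loads copper into SOD1, had 7 and 11 reads in RAME and 63 and 20 reads in DMSO (log2 fold change −1.55, adjusted p = 0.152 from edgeR), and TXN2, the mitochondrial thioredoxin that serves PRDX3 and PRDX5, had 10 and 21 reads in RAME and 74 and 49 reads in DMSO (−1.34, adjusted p = 0.116 from edgeR). Both had all RAME libraries below all DMSO libraries, as had SESN3, GPX8 and NFE2L2 of those given next and 29.5% of all genes tested. CCS differed 3.44-fold between the DMSO libraries, with replicate 1 the higher. For CCS the log2 fold change was −2.18 without DMSO replicate 2, where it was called lower (adjusted p = 0.0201 from edgeR), and −0.41 without DMSO replicate 1 (adjusted p = 0.836 from edgeR), so that its size rested on 1 DMSO library as it did for PRDX1. SESN3, the sestrin with the most reads, had a log2 fold change of −0.48 (adjusted p = 0.494 from edgeR) and GPX8, the most-read glutathione peroxidase, −0.63 (adjusted p = 0.552 from edgeR). NFE2L2, the gene of NRF2 itself, and HMOX1, another NRF2 target, were chosen after their values were seen. NFE2L2 had 8 and 8 reads in RAME and 109 and 24 reads in DMSO (log2 fold change −2.39, adjusted p = 0.0592 from edgeR), and HMOX1 had 9 and 11 reads in RAME and 3 and 1 reads in DMSO (2.91, adjusted p = 0.0522 from edgeR). Between the DMSO libraries NFE2L2 differed 4.96-fold, with replicate 1 the higher, a wider gap than that of CCS. HMOX1 entered the test only through the RAME libraries, where it was high. The RAME libraries alone of NFE2L2, CCS and GPX8 would not have met the filter on reads. Those genes entered the test through the DMSO libraries, where they were higher. NFE2L2 was called lower in DESeq2, with no filter, without DMSO replicate 2, without RAME replicate 1 and with the crossed pairing, and HMOX1 was called higher with upper quartile scaling and with the crossed pairing, and neither was called in the other alternatives. The 3 genes of peroxisome import, which brings catalase to its place, had under 10 reads each, the most-read being PEX13 with 2 and 1 reads in RAME and 4 and 0 in DMSO. GSR, glutathione reductase, the most-read of 8 genes for glutathione supply, had 10 and 6 reads in RAME and 2 and 3 reads in DMSO, below the filter.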

How the data were processed

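The 4 libraries of SKOV-3 cells, 2 given RAME and 2 given DMSO, were analysed. The authors made QuantSeq 3′ libraries, aligned single-end reads with Bowtie2 (build hg19 in the submitters' processing notes), and deposited raw read counts per gene. For the counting tool, annotation and strand setting, nothing is stated in the sources used here. The deposited table also holds normalized values and the authors' own folds and p-values, none of which was used. Columns were assigned to samples by name.

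The test on these counts was that of edgeR 4.0.16 under R 4.3.3 (filterByExpr, min.count 10 and min.total.count 15, TMM, glmQLFit with robust estimation, glmQLFTest, Benjamini-Hochberg over 4517 genes, threshold 0.05). The standard error is the log2 fold change divided by the root of F. CPM uses TMM-scaled totals of the tested genes, and shares and ratios of group totals have exact binomial intervals. The scripts were tested on simulated data. All 9 members are named. Of 43 partner genes (superoxide and copper supply, thioredoxin cycle, sulfiredoxin and sestrins, glutathione peroxidases, glutathione supply, peroxide sources, NRF2 control, peroxisome import), those called and the most-read of each role are named, with others said to be chosen later. Members and lists were chosen with earlier results of these data known. Libraries of a group differed beyond sampling noise (chi-square per degree of freedom 15.4 for RAME and 28.9 for DMSO). Alternatives were DESeq2 1.42.0, limma-voom (limma 3.58.1), other scalings and filters, thinning to 1441575 reads, a block for the replicate number, and each library left out among the 4517 genes. A crossed pairing was added after the data were seen.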

Additional observations from a re-analysis of the deposited data

How the results depend on the processing

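The log2 fold changes of PRDX1, PRDX4 and PRDX5 kept their sign in every alternative in which the gene was tested, from −2.34 to −0.13, −1.71 to −0.73 and 1.09 to 1.57. PRDX1 was called with no filter on reads (−1.66, adjusted p = 0.00666 from edgeR), and this was the 1 member called there. Leaving out a library gave 0 to 2 called members (PRDX1 without DMSO replicate 2 or RAME replicate 2, PRDX4 without DMSO replicate 2), with SOD1 from −0.90 to 0.17 and SOD2 from −1.11 to 0.69. SOD2 also turned to 0.017 with upper quartile scaling and to 0.33 when libraries were thinned to the smallest total. The filter at a mean of 20 reads dropped PRDX5 and SOD2. With a library left out, the RAME minus DMSO difference in share of the family's reads ran from −24.4 to −3.22 percentage points for PRDX1, −15.3 to −0.523 for PRDX4, 13.2 to 22.9 for PRDX5 and −2.55 to 1.28 for SOD1. Of the partners, 1 was higher with a mean of at least 20 reads, which drops TXNRD1, and 0 to 2 were higher and 0 to 2 lower with a library left out. There was 1 lower, NFE2L2, with no filter and in DESeq2. Over all genes tested, 612 calls became 323 to 857 with a library left out. Higher calls were 47.7% of all calls, 59.3% with upper quartile scaling, 39.6% with scaling by library size alone and 38.9% with no filter. The median log2 fold change of all genes moved to 0.12 with upper quartile scaling and to −0.09 with scaling by library size alone. With no filter it was 0.18, over 11683 genes. The replicate numbers were not shown to pair the libraries (correlation of same-numbered deviations −0.34). With the replicate number as a block there were 437 calls, none of them a member, and PRDX1 had −1.27 (adjusted p = 0.203 from edgeR). With the crossed pairing there were 1787 calls, 2 of them members (PRDX1 −1.41 and PRDX4 −1.25) and 3 lower partners (CCS, NFE2L2 and TXN2). The causes of these changes were not tested. With 2 libraries a group and at most 63 reads over all libraries for 6 of the 9 genes, depth limits every statement on them.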
